A study of Mus musculus with 4 samples.

Results

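Excitation-contraction coupling turns an action potential of the muscle fibre into a rise of cytosolic calcium. The dihydropyridine receptor in the T-tubule membrane senses the voltage and, in skeletal muscle, opens the ryanodine receptor of the sarcoplasmic reticulum by direct contact, after which calcium bound to calsequestrin in the reticulum flows into the cytosol. Junctophilins hold both membranes together at the triad, and SERCA pumps return the calcium to the reticulum, with parvalbumin as a cytosolic buffer in fast fibres. The RNA of 10 genes of this machinery was compared between 2 fractions of mouse skeletal muscle. The genes were chosen by symbol as Cacna1s, Ryr1, Trdn, Jph1, Jph2, Casq1, Casq2, Atp2a1, Atp2a2 and Pvalb, and each had 1 row among the 16472 genes of the table.

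Both fractions came from skeletal muscle of wild-type mice, and no treatment other than the fractionation was given. One group held 2 libraries of isolated mitochondria, which the study obtained by lysis and differential centrifugation. The other held 2 libraries whose treatment label reads tissue minus mitochondria while their titles name total muscle. A legend of the study also describes lysates of the total muscle. The group keeps the name remaining tissue after its treatment label, but it may be whole muscle, and the sources do not agree on this. Age, strain and sex of the mice, the muscle taken and whether libraries came from separate or pooled animals were not given in the sources used here, so p-values measure only the spread between these libraries. The study's methods describe digitonin and RNase A treatment for mitochondria of the heart, and whether muscle mitochondria received it was not given either. The fragmentation time was adjusted for mitochondrial samples, and its effect cannot be told apart from that of the fraction.

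Of the 10 genes, 3 pairs are paralogs with different main sites of use: Casq1 and Casq2 (fast skeletal against cardiac and slow muscle), Atp2a1 and Atp2a2 (fast against slow and cardiac muscle), and Jph1 and Jph2 (skeletal against cardiac and skeletal muscle). Since reads were assigned by sequence, the stretch in which the coding sequences of each pair are most alike is shown, 5′ to 3′ on the strand of the gene, with the bases that differ between both paralogs in capitals. The sequences are from GENCODE M21 transcripts on GRCm38. Casq1 is shown at chr1:172210348-172210379 (minus strand, exon 11 of 11) and Casq2 at chr3:102145336-102145367 (plus strand, exon 12 of 12).
Casq1: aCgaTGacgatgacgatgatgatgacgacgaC
Casq2: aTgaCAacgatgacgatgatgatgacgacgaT
Atp2a1 is shown at chr7:126448180-126448235 (minus strand, exon 16 of 23) and Atp2a2 at chr5:122459994-122460049 (minus strand, exon 15 of 20).
Atp2a1: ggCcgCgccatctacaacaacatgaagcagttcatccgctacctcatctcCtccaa
Atp2a2: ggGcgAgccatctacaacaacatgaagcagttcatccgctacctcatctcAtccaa
Jph1 is shown at chr1:17091568-17091614 (minus strand, exon 2 of 5) and Jph2 at chr2:163375874-163375920 (minus strand, exon 3 of 7).
Jph1: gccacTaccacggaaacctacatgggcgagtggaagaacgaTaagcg
Jph2: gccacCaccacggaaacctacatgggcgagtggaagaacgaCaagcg

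The longest run without a mismatch was 25 nt for the calsequestrins, 44 nt for the SERCA pumps and 35 nt for the junctophilins. No stretch of 75 nt, the length of a read, was shared within any pair, so that an untrimmed read from these transcripts held at least 1 base that told the paralogs apart. Of the 10 genes, 5 shared no such stretch with any other gene. The shared part was 16.1% of the windows of Atp2a1 (with Rabep2 on the opposite strand, at 71, 67, 18 and 5 normalized counts in remaining tissue replicates 1 and 2 and isolated mitochondria replicates 1 and 2) and 14.9% of those of Cacna1s (with the antisense gene Gm37759). It was at most 2.66% for Ryr1, Casq1 and Atp2a2. Whether counting used the strand was not stated, so reads from these overlaps cannot be assigned with certainty.

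Values are normalized counts, made by the authors by dividing gene counts by a size factor per library. Assigned reads numbered an estimated 15702491 and 15300357 in remaining tissue and 42749263 and 35306106 in isolated mitochondria, of which the mitochondrial genome took 22.3% and 20.5% against 95.3% and 94.1%. Nuclear genes other than copies of that genome received only 100924 and 181152 reads in isolated mitochondria, which limits the precision of all values below. The spread between libraries also exceeded counting error. Chi-square per degree of freedom was 4.59 in isolated mitochondria and 7.22 in remaining tissue. All 9 marker lists were read beside the members. Of the fast myofibre markers, 9 of 10 were lower in isolated mitochondria, and all 10 were present in each library. Over all genes tested, 9.30% were called lower and 7.32% higher (limma, adjusted p under 0.05), to be set beside the calls of every marker list. No slow myofibre marker of 7 passed the test, though all 7 had log2 fold changes below 0. With edgeR's quasi-likelihood test on reads, 3 of the 7 were lower (42.9%, beside 18.8% of all genes) and 0 higher. Called were also 5 of 5 fibroblast markers (higher), 1 of 2 tested cardiomyocyte markers (higher) and 1 of 2 neuronal markers in each direction, where both higher ones reached the minimum mean only through isolated mitochondria, and 1 of 5 endothelial, 1 of 4 smooth muscle and 1 of 4 nuclear markers (lower), and 0 of 2 of blood.

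Of the 10 genes, 7 (Ryr1, Atp2a1, Jph2, Trdn, Casq1, Cacna1s and Pvalb) were lower in isolated mitochondria (limma, adjusted p under 0.05), and none was higher. Among all 6916 genes tested 9.30% were called lower and 7.32% higher. The median log2 fold change of the 10 genes was -2.42, beside -0.44 over all genes tested. In 9 genes both libraries of isolated mitochondria lay below both of remaining tissue, as in 43.7% of all genes tested, and in Casq2 both lay above (25.5% of all genes). In bulk libraries, fewer fibre remnants and less RNA per fibre cannot be told apart. Scaling moved the background: lower genes made up 56.0% of all calls with the deposited scaling, 14.2% with scaling to the nuclear total and 99.4% with scaling to the total over every gene, 41.3% with the upper quartile, 43.3% with quantile normalization, 44.1% with TMM and 38.4% with DESeq2. The genes Cacna1s, Ryr1, Trdn, Jph2, Casq1 and Atp2a1 were called lower in all 17 alternatives.

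**Figure D1:**
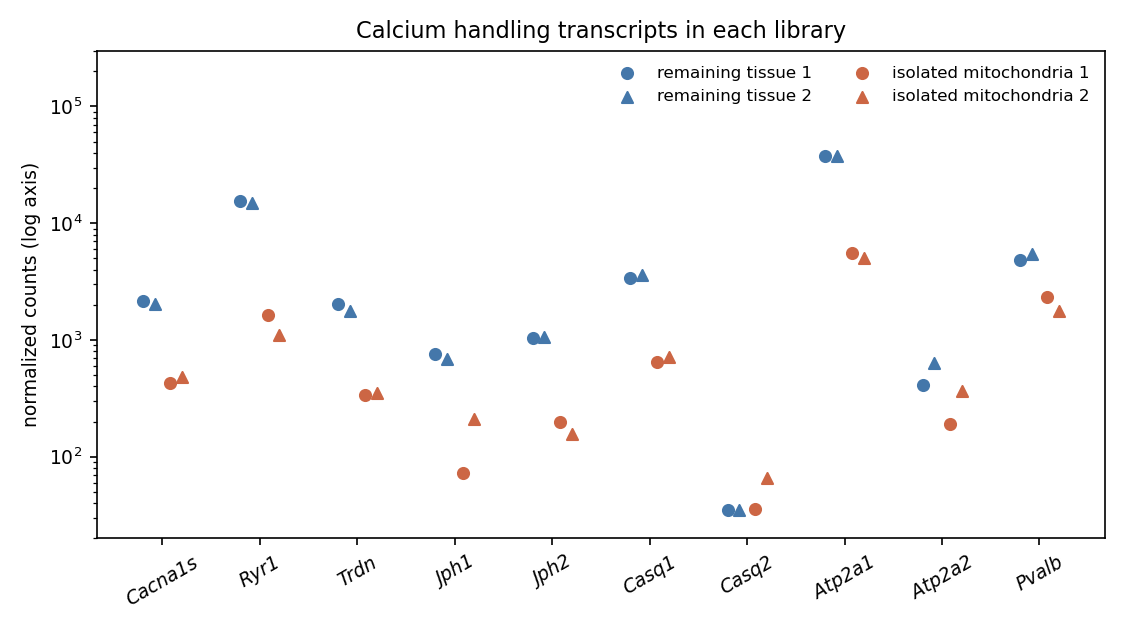
Normalized counts (log axis) of the 10 genes in each library of remaining tissue and isolated mitochondria. Each point is 1 library; both points of isolated mitochondria lie below those of remaining tissue for every gene except Casq2, whose values are 35 and 35 against 36 and 66.

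The voltage sensor was read from Cacna1s, which encodes the pore-forming subunit of the dihydropyridine receptor (ENSMUSG00000026407, chr1:136052750-136119822, plus strand, GRCm38). Its values were 2160 and 2038 normalized counts in remaining tissue and 425 and 486 in isolated mitochondria. Both libraries of each group lay close together and the groups were well apart. The log2 fold change was -2.20 ± 0.17 (SE, n = 2 per group; limma, adjusted p = 0.0101). The level in isolated mitochondria rested on 47 and 96 reads.

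Ryr1 encodes the calcium release channel of the skeletal muscle reticulum (ENSMUSG00000030592, chr7:29003344-29125179, minus strand). It had 15606 and 14804 normalized counts in remaining tissue and 1638 and 1113 in isolated mitochondria, from 181 and 220 reads. The mean was 11.1-fold lower in isolated mitochondria, the largest difference among the 10 genes. On the log2 scale this was -3.49 ± 0.25 (limma, adjusted p = 0.00840), and only 2.08% of the nuclear genes tested had a lower value. Its 95% interval, -4.17 to -2.81, did not meet that of Pvalb, -1.91 to -0.77.

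Trdn encodes triadin, a membrane protein that links the release channel to calsequestrin (ENSMUSG00000019787, chr10:33080554-33476709, plus strand). It had 2027 and 1772 normalized counts in remaining tissue and 335 and 354 in isolated mitochondria. The log2 fold change was -2.46 ± 0.17 (limma, adjusted p = 0.00840).

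The junctophilins, which tether the reticulum to the T-tubule, had almost the same fold change but not the same precision. Jph2 (ENSMUSG00000017817, chr2:163336242-163397993, minus strand) had 1039 and 1054 normalized counts in remaining tissue against 199 and 157 in isolated mitochondria. Its log2 fold change was -2.56 ± 0.20 (limma, adjusted p = 0.0105). Jph1 (ENSMUSG00000042686, chr1:16964560-17097889, minus strand) had 751 and 682 against 72 and 212. The lower library of isolated mitochondria held only 8 reads of Jph1 and the other 42. With a log2 fold change of -2.52 ± 0.57 Jph1 did not pass the test (limma, adjusted p = 0.0565), and its value was -1.75 without isolated mitochondria replicate 1 and -3.30 without replicate 2. It passed in 10 of the 17 alternatives, among them edgeR's quasi-likelihood test on reads (adjusted p = 0.0108).

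Calsequestrin is the calcium-binding protein inside the reticulum, and its paralogs differed in fold change. Casq1 (ENSMUSG00000007122, chr1:172209894-172219868, minus strand) had 3428 and 3580 normalized counts in remaining tissue and 642 and 708 in isolated mitochondria. Its log2 fold change was -2.38 ± 0.16 (limma, adjusted p = 0.00822), with a 95% interval of -2.82 to -1.93. Casq2 (ENSMUSG00000027861, chr3:102086415-102146514, plus strand) had 35 and 35 normalized counts in remaining tissue and 36 and 66 in isolated mitochondria, from 4 and 13 reads. Its value of 0.47 ± 0.40 was not distinguishable from 0 (limma, adjusted p = 0.436), with an interval of -0.63 to 1.57 that did not meet that of Casq1. Without isolated mitochondria replicate 1 it was called higher (0.90, limma, adjusted p = 0.0140), but there the spread came from remaining tissue alone, at 35 and 35, and the lone library was assumed to vary likewise. It was called lower, at -6.08, with scaling to the total over every gene, where the median of all genes was -6.90.

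The SERCA pumps, too, had fold changes whose intervals did not meet. Atp2a1, the pump of fast fibres (ENSMUSG00000030730, chr7:126445858-126463108, minus strand), had 37987 and 37650 normalized counts in remaining tissue and 5547 and 5054 in isolated mitochondria, from 613 and 999 reads. The mean was 7.13-fold lower, a log2 fold change of -2.84 ± 0.18 (limma, adjusted p = 0.00780, interval -3.32 to -2.35). Atp2a2, the pump of slow fibres and of the heart (ENSMUSG00000029467, chr5:122453513-122502225, minus strand), had 408 and 632 against 190 and 369. Replicate 2 exceeded replicate 1 in both fractions, and the highest value of isolated mitochondria came near the lowest of remaining tissue. The log2 fold change of -0.94 ± 0.43 did not pass the test (limma, adjusted p = 0.198), with an interval of -2.12 to 0.24. It was -0.46 without isolated mitochondria replicate 1, -1.41 without replicate 2 and -0.04 with scaling to the nuclear total.

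Pvalb encodes parvalbumin, the soluble calcium buffer of fast fibres (ENSMUSG00000005716, chr15:78191114-78206400, minus strand). It had 4886 and 5409 normalized counts in remaining tissue and 2316 and 1776 in isolated mitochondria, from 256 and 351 reads. The mean was 2.52-fold lower, the smallest difference among the 7 genes called. On the log2 scale it was -1.34 ± 0.21 (limma, adjusted p = 0.0291), and 23.3% of the nuclear genes tested had a lower value. The call was lost in 6 of the 17 alternatives. With scaling to the nuclear total the value was -0.45 (limma, adjusted p = 0.218), and without remaining tissue replicate 1 or 2 the adjusted p was 0.0697 or 0.131.

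The share of a gene within its pair does not depend on how libraries are scaled. Casq2 made up 1.01% and 0.968% of the counts of both calsequestrins in remaining tissue. In isolated mitochondria it made up 5.31% (95% Wilson interval 2.09 to 12.9%) and 8.53% (5.03 to 14.0%). The means were 0.989% ± 0.0300 and 6.92% ± 2.28 (SD, n = 2), without overlap. Atp2a2 made up 1.06% and 1.65% of the counts of both pumps in remaining tissue, and 3.31% (2.18 to 5.01%) and 6.80% (5.45 to 8.48%) in isolated mitochondria. The shares of the minor paralog were thus higher in both libraries of isolated mitochondria for both pairs. For Jph1 the shares were 42.0% and 39.3% in remaining tissue and 26.6% (14.2 to 44.4%) and 57.5% (46.1 to 68.2%) in isolated mitochondria, which lay on both sides. The intervals cover counting error only, and an exact two-sided permutation test of 2 against 2 libraries cannot go below p = 0.333, so none was run.

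**Figure D2:**
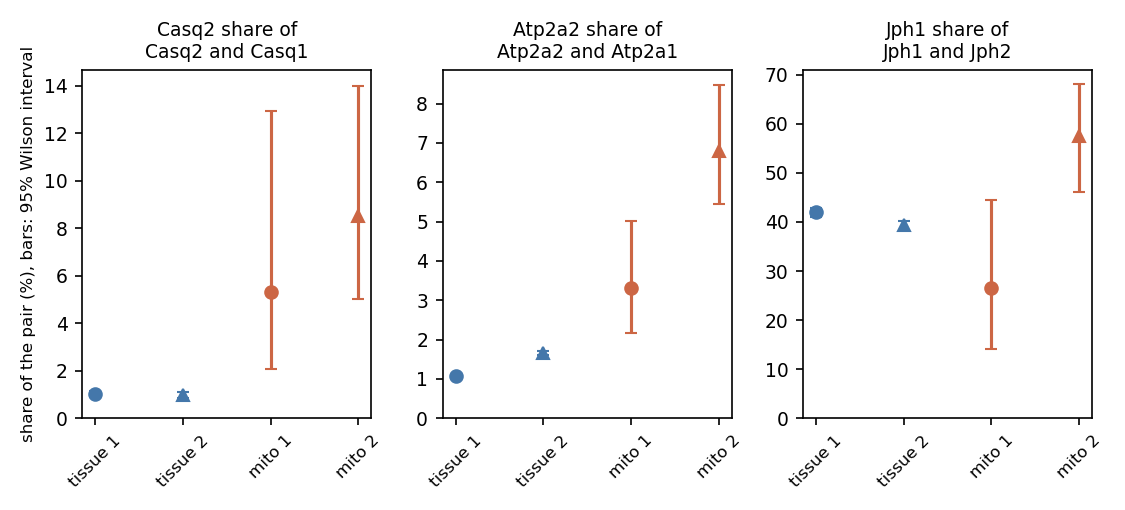
Share (percent) of Casq2, Atp2a2 and Jph1 in the counts of each paralog pair, with 1 point per library and 95% Wilson intervals, which cover counting error only. The shares of Casq2 (5.31% and 8.53%) and Atp2a2 (3.31% and 6.80%) in isolated mitochondria lie above those in remaining tissue, while those of Jph1 lie on both sides.

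Slow myofibre and cardiac markers were read beside these paralogs. No slow marker passed the test. All 7 slow myofibre markers were higher in replicate 2 than in replicate 1 in both fractions, by up to 2.08 times in remaining tissue and, for the 5 above 0 in replicate 1, up to 3.62 times in isolated mitochondria. Atp2a2 was higher in replicate 2 by 1.55 times in remaining tissue and 1.94 times in isolated mitochondria, and Casq2 by 1.00 and 1.83 times. The median log2 fold change of the slow markers was -1.85 (range -4.18 to -0.53), beside -1.80 (-3.34 to -0.60) for the fast markers. Atp2a2 (-0.94) lay inside both ranges and Casq2 (0.47) above both. Of the nuclear counts, the slow markers together took 1.55 times less in isolated mitochondria, and the fast markers 2.58 times less. Of 6 cardiomyocyte markers 3 were in the table, with summed levels of 211 to 344 normalized counts in remaining tissue and 643 to 1786 in isolated mitochondria. Tnnt2, cardiac troponin T, had 6 and 4 against 118 and 243. It reached the minimum mean for the test only through isolated mitochondria, so its call is not read as evidence. Myh6, the alpha cardiac myosin heavy chain, had 196 and 334 against 525 and 1543 and did not pass (limma, adjusted p = 0.122). With edgeR's quasi-likelihood test on reads, both Myh6 and Tnnt2 were called higher, beside 13.8% of all genes. The edgeR call of Tnnt2 is likewise not read as evidence. Myl4 was at 0 in both libraries of isolated mitochondria. The part of these cells in the values of Casq2 and Atp2a2 was not tested.

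**Figure D3:**
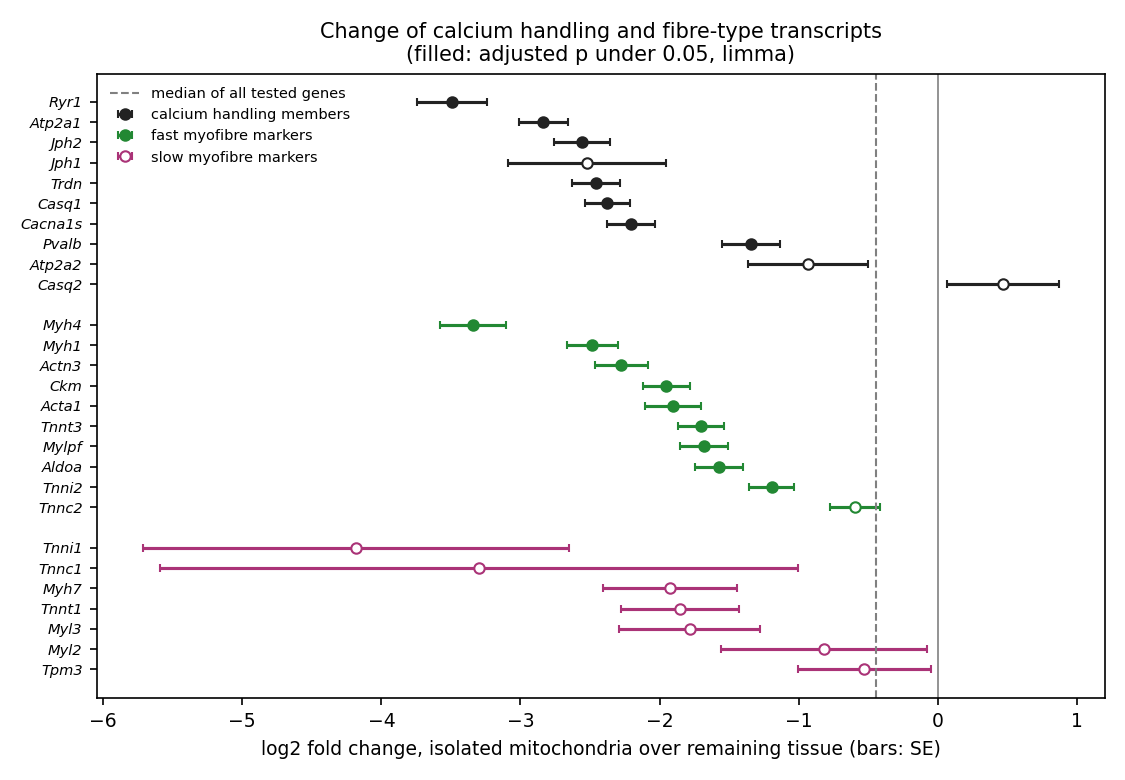
Log2 fold change of isolated mitochondria over remaining tissue for the 10 genes, the 10 fast and the 7 slow myofibre markers; bars are SE and filled points passed the test (limma, adjusted p under 0.05). Ryr1 (-3.49) is the lowest of the 10 genes, and Casq2 (0.47) is the 1 point above 0.

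Levels were compared between genes per kilobase of the longest transcript. In remaining tissue the order of the mean normalized counts per kilobase was Atp2a1 (10877), Pvalb (5269), Casq1 (1897), Ryr1 (990.0), Trdn (421), Cacna1s (336), Jph2 (249), Jph1 (149), Atp2a2 (91.6) and Casq2 (13.7), and no neighbours overlapped. In isolated mitochondria Pvalb (mean of 2094 normalized counts per kilobase) stood before Atp2a1 (1524), Casq1 (365) and Ryr1 (89.6), and these 4 did not overlap. Below them the order was Trdn (76.3), Cacna1s (72.9), Atp2a2 (49.3), Jph2 (42.3), Jph1 (29.5) and Casq2 (19.95). There Ryr1 overlapped Trdn, Trdn overlapped Cacna1s, and each of Atp2a2, Jph2, Jph1 and Casq2 overlapped its neighbour in this order. Together the 10 genes took 4.00% ± 0.0230 (SD, n = 2) of the nuclear counts of remaining tissue and 1.19% ± 0.0886 of those of isolated mitochondria, 3.37 times less.

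The genes also differ in transcript length, from 0.977 kb for Pvalb to 15.358 kb for Ryr1, the genes with the smallest and the largest difference among the 7 called. Spearman's rho between length and log2 fold change was -0.32 over the 10 genes, -0.89 over the 10 fast myofibre markers and -0.17 over 6861 nuclear genes. With the share of G and C bases in place of length, rho was -0.53, 0.36 and 0.05 over the same sets. These are descriptions across genes, which share the same 4 libraries and are not independent replicates. With nuclear genes split into 4 equal parts from short to long transcripts, the median log2 fold change was -0.08, -0.45, -0.49 and -0.75. The part of length, of base composition or of the fragmentation time in the values of Ryr1 and Pvalb was not tested.

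**Figure D4:**
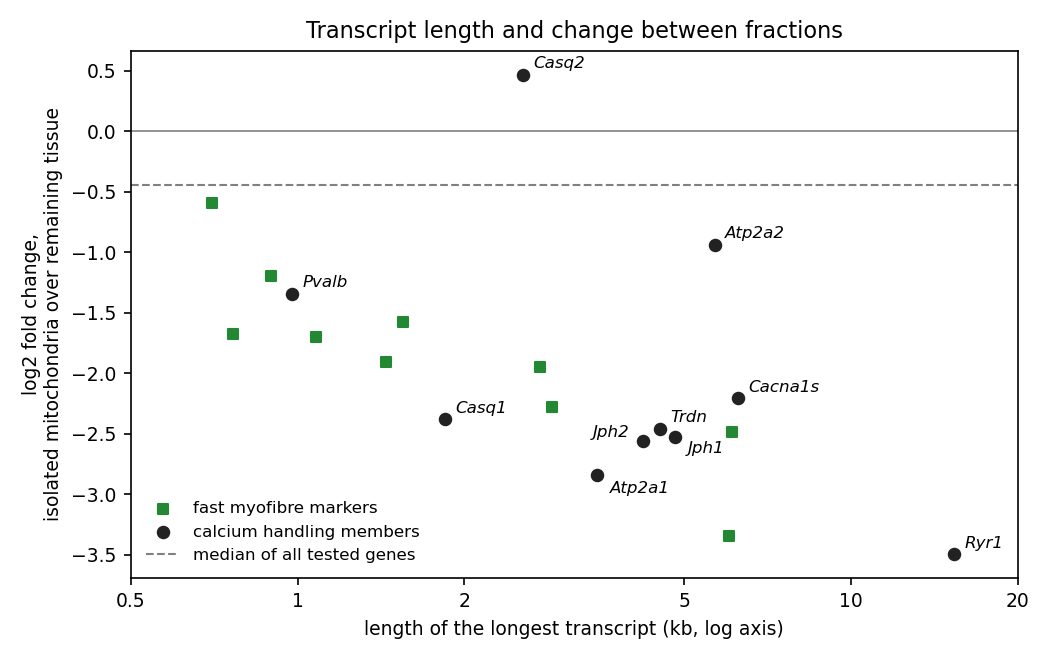
Log2 fold change of isolated mitochondria over remaining tissue against the length of the longest transcript (kb, log axis) for the 10 genes (circles) and 10 fast myofibre markers (squares); the dashed line is the median of all genes tested (-0.44). The longest gene, Ryr1, is the lowest of the 10, and Pvalb, the shortest, is the highest among those called. Not called and higher than Pvalb are the longer Atp2a2 (5.674 kb, -0.94) and Casq2 (2.556 kb, 0.47).

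Other genes of the pathway were read from a list of 50 in 5 roles, of which 47 were in the table and 39 were tested. Lower in isolated mitochondria were 15 of 39 (38.5%, beside 9.30% of all genes) and higher 1 (2.56%, beside 7.32%), with a median log2 fold change of -1.62. The 15 include Clcn1, which reached the minimum mean only through remaining tissue, so its call is not read as evidence. With edgeR's quasi-likelihood test on reads, 24 were lower (18.8% of all genes were) and 2 higher (13.8% of all genes). The lower ones again include Clcn1. They also include Stim2, with 83 and 78 normalized counts in remaining tissue and 9 and 30 in isolated mitochondria. Stim2 too reached the minimum mean only through remaining tissue, so its edgeR call is not read as evidence. The 2 higher were Calr and Ryr2, and Ryr2 reached the minimum mean only through isolated mitochondria.

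At the T-tubule, 5 of 8 genes tested were lower (62.5%, beside 9.30% of all genes) and none was higher (7.32% of all genes). Scn4a, the voltage-gated sodium channel that carries the muscle action potential, had 1092 and 954 normalized counts in remaining tissue and 145 and 162 in isolated mitochondria (log2 fold change -2.73 ± 0.19; limma, adjusted p = 0.00824). Clcn1, the chloride channel that stabilises the resting potential, had 250 and 220 against 18 and 15, from only 2 and 3 reads. The ratio of the pooled reads, scaled, was 14.5, with a counting interval of 6.20 to 44.6. Clcn1 reached the minimum mean only through remaining tissue, so its call, 1 of the 5, is not read as evidence.

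Among partners of the release channel and proteins of the junctional reticulum, 5 of 10 tested were lower and none was higher. Srl, sarcalumenin, a calcium-binding protein of the reticulum, had 2152 and 2376 normalized counts against 326 and 425, and Hrc, the histidine-rich calcium-binding protein, 1787 and 1730 against 335 and 410. Tmem38a, the TRIC-A cation channel of the reticulum, had 1094 and 1048 against 190 and 288, and Speg, a kinase of the triad, 1245 and 1131 against 154 and 212. In none of these did the fractions overlap, as in the 43.7% of all genes tested that lay lower without overlap. The log2 fold changes were -2.60 for Srl, -2.24 for Hrc, -2.19 for Tmem38a and -2.71 for Speg, and these genes and Scn4a were called in all 17 alternatives.

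The other ryanodine receptors were at low levels. Ryr3 had 4 and 3 normalized counts in remaining tissue and 0 in both libraries of isolated mitochondria, and was not tested. Ryr2, the release channel of the heart, had 1 and 1 in remaining tissue and 36 and 162 in isolated mitochondria, from 4 and 32 reads. It reached the minimum mean only through isolated mitochondria, so its difference and its calls in any setting are not read as evidence. Both libraries of isolated mitochondria lay above both of remaining tissue, as in 25.5% of all genes tested. Ryr2 did not pass the test, at a log2 fold change of 5.28 ± 1.15 (limma, adjusted p = 0.0533). It passed in 11 of the 17 alternatives, and its value was 6.35 without isolated mitochondria replicate 1 and 4.21 without replicate 2. Myh6 and Tnnt2 were also higher in replicate 2 of isolated mitochondria, at the values given above, while Myl4 was at 0 in both libraries. All 3 neuronal markers in the table (by 1.38 to 1.90 times) and all 7 slow myofibre markers were higher there too. The relation of any of these to Ryr2 was not tested.

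Of the pumps and their regulators, 1 of 3 tested was lower (33.3%, beside 9.30% of all genes) and none was higher (7.32% of all genes). Mrln, which encodes the pump inhibitor myoregulin, had 47 and 32 normalized counts against 54 and 20, which overlapped (log2 fold change -0.23 ± 0.59; limma, adjusted p = 0.798). Atp2a3, the third SERCA gene, had 17 and 13 against 0 and 5, and Sln, the pump inhibitor sarcolipin, 2 and 3 against 0 and 0; neither was tested. Pln and Strit1 were not analysed here.

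Of calcium sensors, buffers and effectors, 3 of 12 were lower and 1 was higher. Ppp3ca, a catalytic subunit of calcineurin, had 298 and 279 normalized counts against 45 and 81 (log2 fold change -2.24; limma, adjusted p = 0.0296), and Camk2a, a calcium/calmodulin-dependent kinase that also stands on the list of neuronal markers, 575 and 595 against 109 and 207 (-1.95; limma, adjusted p = 0.0402). Both calls were lost in 5 of the 17 alternatives. Calr, the calcium-binding chaperone of the endoplasmic reticulum, was the 1 gene of the list called higher, with 203 and 224 against 434 and 465 (1.07 ± 0.18; limma, adjusted p = 0.0342). Calr was called higher in 13 of the 17 alternatives, but not without remaining tissue replicate 1 or 2 (limma, adjusted p = 0.433 or 0.329), and lower, at -5.79, with scaling to the total over every gene. All 5 fibroblast markers were higher as well, such as Col1a1 with 368 and 434 against 2108 and 5074 and Dcn with 326 and 300 against 1909 and 1852. The part of fibroblast RNA in the level of Calr was not tested. Of store entry, exchange and IP3 receptor genes, 1 of 6 was lower (16.7%, beside 9.30% of all genes) and none was higher (7.32% of all genes). The other 7 genes called lower (Stac3, Camk2g, Sypl2, Cacnb1, Stim1, Bin1 and Atp2b1) had log2 fold changes from -1.72 to -1.09. They were called lower in 8 (Atp2b1) to 14 of the 17 alternatives, and none of the 7 was called without either library of remaining tissue.

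**Figure D5:**
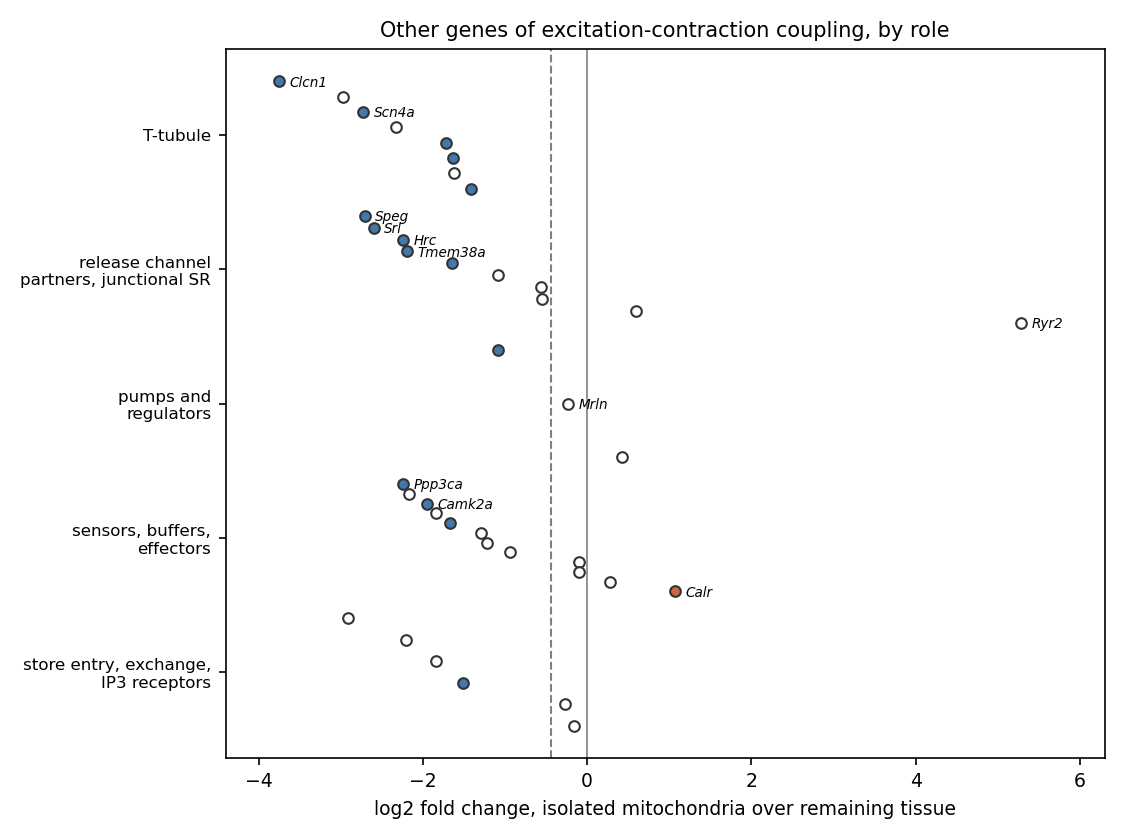
Log2 fold change of isolated mitochondria over remaining tissue for the 39 other genes tested, by role; filled points passed the test (limma, adjusted p under 0.05), blue lower and red higher, and the dashed line is the median of all genes tested. Clcn1, with 2 and 3 reads in isolated mitochondria, is the lowest, and Calr (1.07) is the 1 filled point above 0, while Ryr2 (5.28) did not pass.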

How the data were processed

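RNA of wild-type mouse skeletal muscle was sequenced in 4 libraries, 2 per fraction. Libraries were prepared with a stranded low-input kit. Per the labels, the authors used Trimmomatic 0.39, STAR 2.7.10a, featureCounts 2.0.2 and DESeq2 1.30.1, with build GRCm38; the study's text names other versions of the last 3 tools. Reads over exons were counted, and reads of several genes or places left out. The deposited signal is gene counts divided by a size factor and rounded (normalized counts). Low values of isolated mitochondria were whole multiples of 9.049 and 5.059 (99.95% of 10508 and 99.97% of 11660 values under 2000 within 0.5 of a whole multiple), so whole reads were recovered. Reads of remaining tissue were estimated with 0.142 normalized counts per read, a value set equal for both libraries. Their read totals, and the count models on reads, thus assume equal size factors for these libraries.

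The test was limma 3.58.1 (lmFit, eBayes with a trend; R 4.3.3) applied to log2(normalized count + 1) of genes whose mean was at least 20. It was two-sided, with Benjamini-Hochberg adjustment over 6916 genes at 0.05. The scale understates changes of low genes. Alternatives, 17 in all, changed pseudocount, filter, scaling, model (edgeR 4.0.16, DESeq2 1.42.0 on reads), replicate block and left-out library. Members, companion and marker lists were chosen with earlier results of these data known. Companions were named if called, up to 8 per direction by size of change, or if relatives of a member or regulators of the pump. Wilson intervals and counts of reads cover counting error only, since reads carried no molecular identifiers. Sequences and lengths were taken from GENCODE M21, which held 16457 of the 16472 gene identifiers.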

Additional observations from a re-analysis of the deposited data

How the results depend on the processing

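Depth limited these results: isolated mitochondria held 4 to 999 reads of each of the 10 genes. Of 170 alternative values of the 10 genes, 150 kept direction and side of the threshold, 13 newly passed it, 6 (of Pvalb) no longer did, and 1 reversed, Casq2 at -6.08 with scaling to the total over every gene, where the median of all genes was -6.90. The number of the 10 genes called was 7, and 6 to 10 under other settings (7 to 9 when 1 library was left out). Over all genes, 1149 calls became 682 with a mean of at least 5, 3691 without a filter, 6732 with scaling to the total over every gene, 2252 with edgeR, 1977 with edgeR and TMM, 2281 with DESeq2 and 472 to 4841 when 1 library was left out, where a lone library was assumed to vary like the other group (fewer without a library of remaining tissue, more without one of isolated mitochondria). The 16 companion calls (15 lower, 1 higher) became 38 with the total over every gene (all lower), 9 with the nuclear total (6 lower, 3 higher), 26 with edgeR (24 lower, 2 higher) and, likewise, 9 to 35 when 1 library was left out. The replicate numbers gave only 2 pairs (r = 0.14 between deviations over 6862 genes); with the replicate block 1774 genes, 9 of the 10 members (Atp2a2, adjusted p = 0.0486 with limma, and Jph1 in addition) and 23 companions were called. Of all counts, the 10 genes took 3.09% (remaining tissue) and 0.00436% (isolated mitochondria), and 3.93% and 0.0802% with nuclear copies left in. Per transcript length, the paralog shares in remaining tissue were 0.717% for Casq2, 0.836% for Atp2a2 and 37.5% for Jph1, against 5.10%, 3.17% and 39.1% in isolated mitochondria. Other denominators change shares by construction; the cause of the other changes was not tested.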
